A study of Arabidopsis thaliana with 2 samples.

Results

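The nuclear genes of the photosynthetic light reactions were described in MNase-seq data of Arabidopsis thaliana leaves, in the chr5 mutant and in the wild type. A list of 48 genes was used, with 6 genes of the photosystem I antenna, 14 of the photosystem II antenna, 12 of photosystem I subunits, 9 of photosystem II subunits, 5 of electron transport and 2 of the ATP synthase. Each gene was taken as the 10-kb bin that holds its midpoint, and each bin was used once. The 48 genes lay in 45 bins, out of 11735 nuclear bins that passed a filter on low counts, and all 45 passed it. The genes were listed by function, at a time when earlier results of these data were known.

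In MNase-seq, micrococcal nuclease digests the DNA that is not protected, mostly the DNA between nucleosomes, and the DNA that survives is sequenced. The series holds 1 library of the chr5 mutant, with 102961878 counts, and 1 library of the wild type, with 99909809 counts. Both came from leaves of plants grown on plates at 22 °C with no treatment. The mutated gene, CHR5, codes for a chromatin remodeller of the SNF2 family, related to CHD1, and the comparison addresses where DNA is protected without the normal gene. The sources used here do not give the allele, the age of the leaves or the number of plants in each library.

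In the light reactions, chlorophyll proteins of the antenna capture light and pass its energy to the reaction centres of photosystem II and photosystem I. Electrons then run from photosystem II over the cytochrome b6f complex and plastocyanin to photosystem I and on to ferredoxin and NADP, and the proton gradient built on the way drives the ATP synthase. The proteins at the heart of each complex are encoded in the chloroplast, whereas the antenna proteins and many outer subunits are encoded in the nucleus, by genes that rank among the most strongly transcribed of a green leaf.

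Folds are given as chr5 over wild type, each library being scaled to its sum over the nuclear chromosomes. Each genotype has 1 library, so differences have no replicate check and could not be tested. The exact 95% interval printed after a fold accounts for counting error alone, and PCR copies, if kept, would make it too narrow. A bin of 10 kb spans many nucleosomes and several genes. A member gene took up 14.0% of its bin in the median, with a range of 7.20% to 37.7%, and the median bin held the midpoints of 4 protein-coding genes. A value therefore belongs to the bin and not to the gene alone. In a whole leaf, lower protection in every cell and a loss of protection in some cells cannot be told apart.

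The bins of these genes were on the whole slightly lower in the chr5 library than the rest of the genome. Their median log2 ratio was -0.041, a fold of 0.972, against a median of 0.015 and a fold of 1.01 over all analysed bins. Below the genome median lay 36 of the 45 bins, or 80%, where the share over all analysed bins is 50% and the share over the 10333 bins that hold a protein-coding gene midpoint was 45.5%. The summed counts of the 45 bins were 355702 in chr5 and 355481 in wild type, a scaled fold of 0.971 (0.967 to 0.976). The differences are small beside the spread over the genome, where the SD of the log2 ratio was 0.064 and 95% of bins had folds from 0.907 to 1.08.

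Lower by 1.1-fold or more in chr5 were 4 of the 45 bins, or 8.89%, against 2.65% of all analysed bins and 1.04% of bins with a protein-coding gene midpoint. Of these 4 bins, 3 hold genes of the antenna proteins LHCB1 and LHCB2, and among the 40 member bins without such genes 1 was lower by as much. Pericentromeric, within 2 Mb of the approximate centromere, were 2 of the 4, and 13.1% of all pericentromeric bins were lower by as much. No member bin was higher by that much, where 0.81% of all analysed bins were. At 1.05-fold, a threshold added after the values were seen, 13 of the 45 bins were lower, or 28.9%, against 9.29% of all bins. Only the bin of PSAE-2 was higher by 1.05-fold or more, against 12.1% of all bins. The counting interval lay wholly below a fold of 1 in 17 of the 45 bins, against 16.2% of all analysed bins and 10.2% of those with a protein-coding gene midpoint. It lay wholly above 1 in 4 of the 45, against 24.6% of all analysed bins and 26.8% of those with a protein-coding gene midpoint.

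**Figure D1:**
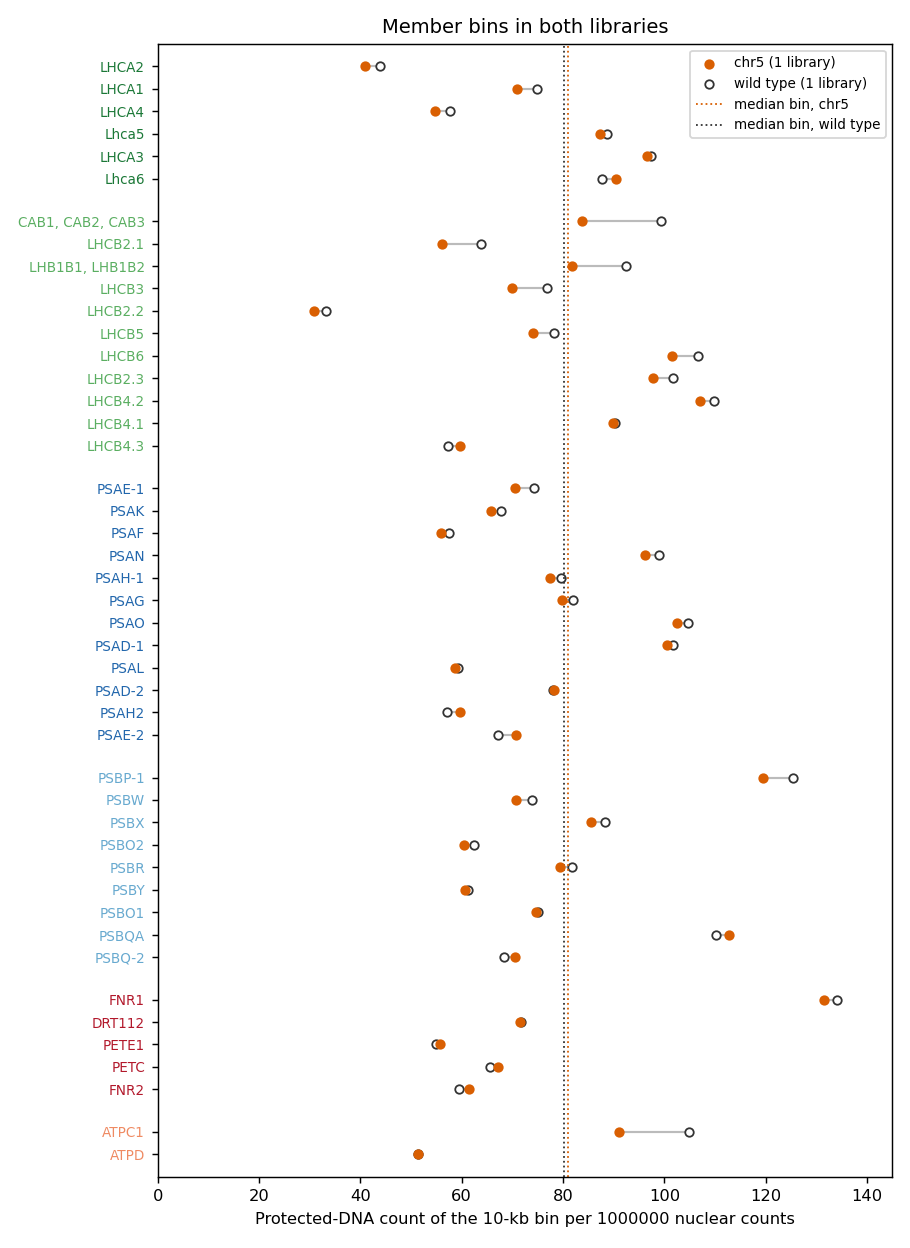
Protected-DNA count of each of the 45 member bins per 1000000 nuclear counts, with chr5 as filled and wild type as open circles and gene symbols coloured by role as in the plot of ratios. The bins run from 30.9 in chr5 and 33.2 in wild type for LHCB2.2 to 132 in chr5 and 134 in wild type for FNR1, around medians over all analysed bins of 81.0 in chr5 and 80.3 in wild type.

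The lowest ratio was found where 3 genes of the major light-harvesting protein stand next to each other. CAB1 (AT1G29930), CAB2 (AT1G29920) and CAB3 (AT1G29910) encode LHCB1, the most abundant protein of the light-harvesting complex II trimer, which is the main antenna of photosystem II. Their bin (chromosome 1, 10470001 to 10480000) held 8582 counts in chr5 and 9882 in wild type, which is 83.8 counts per 1000000 nuclear counts (CPM) in chr5 and 99.4 CPM in wild type. The fold was 0.843 (0.819 to 0.868), and only 0.383% of all analysed bins had a lower ratio. The 3 genes took up 37.7% of the bin, the largest share among the member bins. CARB and NRPA2 share the bin, so the count is not that of the CAB genes alone.

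The other LHCB1 genes showed the same direction. LHB1B1 (AT2G34430) and LHB1B2 (AT2G34420) lie together in a bin on chromosome 2 (14520001 to 14530000) with 8376 counts in chr5 and 9192 in wild type. Its fold was 0.884 (0.858 to 0.911). In the chr5 library this bin and the CAB1 to CAB3 bin came close to the genome-wide median bin, with 81.8 and 83.8 CPM, whereas in the wild-type library both lay above it, with 92.5 and 99.4 CPM.

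LHCB2 is the second kind of subunit in the trimer, and its phosphorylation by the kinase STN7 lets antenna move between the photosystems. Its 3 genes differed in their ratios. LHCB2.1 (AT2G05100; chromosome 2, 1820001 to 1830000) had 5754 counts in chr5 and 6341 in wild type, a fold of 0.881 (0.850 to 0.913). LHCB2.2 (AT2G05070; chromosome 2, 1790001 to 1800000) had the fewest counts of all members, 3167 in chr5 and 3297 in wild type, with a fold of 0.932 (0.888 to 0.979). LHCB2.3 (AT3G27690; chromosome 3, 10250001 to 10260000) had 10004 counts in chr5 and 10115 in wild type, with a fold of 0.960 (0.934 to 0.987). LHCB2.1 and LHCB2.2 are pericentromeric, taken as within 2 Mb of the approximate centromere, where the median log2 ratio of all bins was -0.054 and 13.1% of bins were lower by 1.1-fold or more, against 0.66% of arm bins.

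LHCB3 (AT5G54270), the third subunit of the trimer, is a single gene on the arm of chromosome 5 (22030001 to 22040000). Its bin had 7164 counts in chr5 and 7631 in wild type, a fold of 0.911 (0.882 to 0.941). All 6 bins of trimer genes were thus lower in chr5 and below the genome median, where 50% of all analysed bins lie. Their median log2 ratio was -0.16 and their pooled fold 0.899 (0.888 to 0.911, counting error only). Of the 6 bins, 2 are pericentromeric.

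The monomeric antenna proteins, which connect the trimers to the photosystem II core, stood closer to the genome. LHCB5 (AT4G10340), also called CP26, had 7596 counts in chr5 and 7770 in wild type, a fold of 0.949 (0.919 to 0.979). LHCB6 (AT1G15820), or CP24, had 10386 counts in chr5 and 10602 in wild type, a fold of 0.951 (0.925 to 0.977). The 3 genes of LHCB4, or CP29, were spread on either side of 1. LHCB4.2 (AT3G08940) had 10960 counts in chr5 and 10921 in wild type, a fold of 0.974, and LHCB4.1 (AT5G01530) had 9197 in chr5 and 8979 in wild type, a fold of 0.994. LHCB4.3 (AT2G40100), a divergent member of the CP29 family, had 6110 counts in chr5 and 5697 in wild type, a fold of 1.04 (1.004 to 1.08), the highest of the photosystem II antenna. Over the 5 monomeric bins the median log2 ratio was -0.038, which is 0.12 above that of the trimer bins. This division of the antenna was made after the values were seen and has no test.

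**Figure D2:**
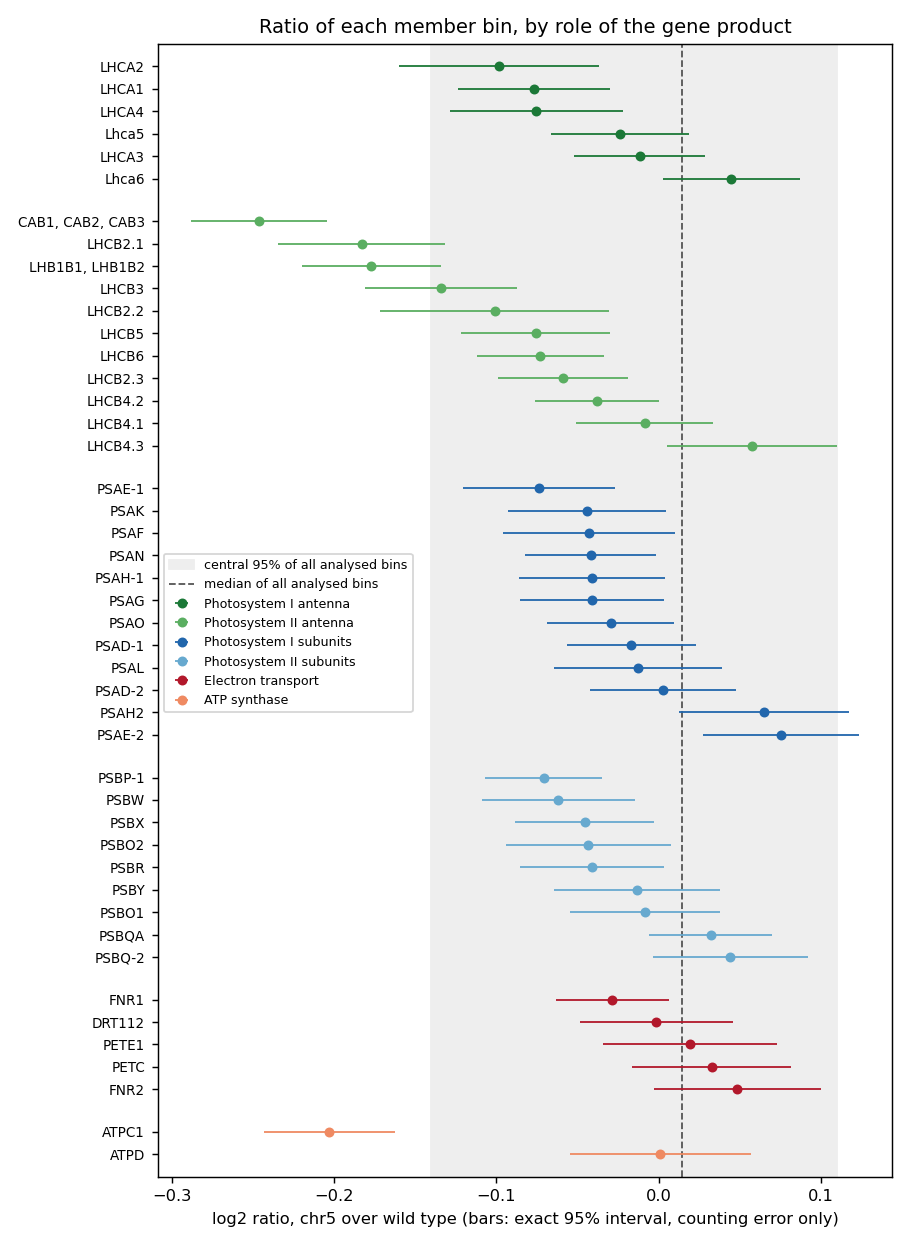
Log2 ratio of chr5 over wild type for each member bin, grouped by the role of the gene product, with exact 95% intervals for counting error. The bins of CAB1 to CAB3, LHCB2.1, LHB1B1 with LHB1B2, and ATPC1 lie below the central 95% of all analysed bins (log2 -0.14 to 0.11), and no member lies above it.

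The photosystem I antenna is built from LHCA1 to LHCA4, with Lhca5 and Lhca6 as minor members that link photosystem I to the NADH dehydrogenase-like complex. LHCA2 (AT3G61470; chromosome 3, 22740001 to 22750000) had 4199 counts in chr5 and 4363 in wild type, a fold of 0.934 (0.895 to 0.975). LHCA1 (AT3G54890) had 7270 counts in chr5 and 7442 in wild type, a fold of 0.948 (0.918 to 0.979). LHCA4 (AT3G47470), which pairs with LHCA1, had 5611 counts in chr5 and 5738 in wild type, a fold of 0.949 (0.915 to 0.985). These 3 intervals lay below 1, whereas LHCA3 (AT1G61520) at 0.992 and Lhca5 (AT1G45474) at 0.984 had intervals that included 1. These last 2 genes and LHCA1 also reach into the bin before their midpoint bin. In that other bin the fold was 0.952 (0.921 to 0.984) for LHCA3, 1.004 (0.972 to 1.036) for Lhca5 and 0.9999 (0.968 to 1.03) for LHCA1, so the lower ratio of LHCA1 was that of its midpoint bin only. The other 5 members that span 2 bins had folds in the bin that does not hold the midpoint of 0.967 for PSBO1, 0.969 for LHCB2.2, 0.989 for LHCB4.1, 1.005 for PSBW and 1.02 for PSAD-1. Lhca6 (AT1G19150; chromosome 1, 6610001 to 6620000) was the exception, with 9271 counts in chr5 and 8721 in wild type and a fold of 1.03 (1.002 to 1.06). In this group 5 of 6 bins lay below the genome median, against 50% of all analysed bins. None was lower by 1.1-fold, against 2.65% of all analysed bins, and the median log2 ratio was -0.050.

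The 12 photosystem I subunits stood in a narrower range, from a fold of 0.950 to 1.05. Their median log2 ratio was -0.035, and 10 of the 12 bins lay below the genome median, against 50% of all analysed bins. The lowest and the highest were the copies of a single subunit, PSAE, which helps to dock ferredoxin at the stromal side. PSAE-1 (AT4G28750; chromosome 4, 14200001 to 14210000) had 7225 counts in chr5 and 7380 in wild type, a fold of 0.950 (0.920 to 0.982). PSAE-2 (AT2G20260; chromosome 2, 8730001 to 8740000) had 7250 counts in chr5 and 6677 in wild type, a fold of 1.054 (1.019 to 1.09), the highest of all 45 bins. The wild-type counts differed most between the copies, while the chr5 counts were nearly equal.

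PSAH, a subunit at which light-harvesting complex II docks during state transitions, likewise split between its copies. PSAH-1 (AT3G16140) had 7920 counts in chr5 and 7909 in wild type, a fold of 0.972 (0.942 to 1.003). PSAH2 (AT1G52230; chromosome 1, 19450001 to 19460000) had 6116 counts in chr5 and 5674 in wild type, a fold of 1.046 (1.009 to 1.085). The copies of PSAD, another ferredoxin-docking subunit, both stood near 1. PSAD-1 (AT4G02770) had 10288 counts in chr5 and 10101 in wild type, a fold of 0.988 (0.962 to 1.02), and PSAD-2 (AT1G03130) had 8013 in chr5 and 7762 in wild type, a fold of 1.002 (0.971 to 1.03). The single genes of this photosystem all had folds under 1. PSAF (AT1G31330), whose product binds plastocyanin, stood at a fold of 0.971. PSAK (AT1G30380) and PSAG (AT1G55670), membrane subunits at the edge of the complex, stood at 0.970 and 0.972. PSAN (AT5G64040), at the lumenal side, stood at 0.971, and PSAO (AT1G08380) and PSAL (AT4G12800), near the docking site of light-harvesting complex II, at 0.980 and 0.991.

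Of the 9 photosystem II subunits, 7 lay below the genome median, against 50% of all analysed bins, with a median log2 ratio of -0.041. The lowest was PSBP-1 (AT1G06680; chromosome 1, 2040001 to 2050000), a protein of the oxygen-evolving complex, with 12228 counts in chr5 and 12465 in wild type and a fold of 0.952 (0.929 to 0.976). PSBW (AT2G30570), a small membrane subunit, followed with 7243 counts in chr5 and 7337 in wild type, a fold of 0.958 (0.927 to 0.990). PSBO stabilises the manganese cluster that splits water. PSBO2 (AT3G50820) had 6198 counts in chr5 and 6199 in wild type, a fold of 0.970 (0.937 to 1.005), and PSBO1 (AT5G66570) had 7640 in chr5 and 7458 in wild type, a fold of 0.994 (0.963 to 1.03). The small subunits PSBX (AT2G06520), PSBR (AT1G79040) and PSBY (AT1G67740) stood at folds of 0.969, 0.972 and 0.991. Both genes of PSBQ, a further protein of the oxygen-evolving complex, lay above the genome median. PSBQA (AT4G21280) had 11541 counts in chr5 and 10954 in wild type, a fold of 1.02 (0.996 to 1.05), and PSBQ-2 (AT4G05180; chromosome 4, 2670001 to 2680000) had 7219 in chr5 and 6794 in wild type, a fold of 1.03 (0.997 to 1.07).

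Electron transport genes stood closer to the genome. Their 5 bins had a median log2 ratio of 0.019, above the genome median. Below the genome median lay 2 of the 5, against 50% of all analysed bins. The interval of every one of the 5 included a fold of 1. Over all analysed bins the interval lay wholly below 1 in 16.2% and wholly above 1 in 24.6%. Among the 45 member bins it did so in 17 and 4. FNR1 and FNR2 encode ferredoxin-NADP reductase, the last enzyme of linear electron flow. FNR1 (AT5G66190; chromosome 5, 26450001 to 26460000), the member bin with the most counts, had 13468 in chr5 and 13331 in wild type, a fold of 0.980 (0.957 to 1.004). FNR2 (AT1G20020; chromosome 1, 6940001 to 6950000) had 6293 counts in chr5 and 5905 in wild type, a fold of 1.03 (0.998 to 1.07). The plastocyanin genes DRT112 (AT1G20340) and PETE1 (AT1G76100) had 7327 and 5705 counts in chr5 and 7118 and 5463 in wild type, with folds of 0.999 (0.967 to 1.03) and 1.01 (0.976 to 1.05). PETC (AT4G03280), the Rieske iron-sulphur protein of the cytochrome b6f complex, had 6877 counts in chr5 and 6524 in wild type, a fold of 1.02 (0.989 to 1.06).

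The ATP synthase genes stood far apart. ATPC1 (AT4G04640; chromosome 4, 2350001 to 2360000), which encodes the gamma subunit that turns in the catalytic head and carries its redox switch, had 9332 counts in chr5 and 10427 in wild type. Its fold of 0.869 (0.845 to 0.893) was the lowest but one among the members. ATPD (AT4G09650; chromosome 4, 6100001 to 6110000), for the delta subunit that ties the head to the stalk, had 5257 counts in chr5 and 5098 in wild type, a fold of 1.001 (0.963 to 1.04). The ATPC1 bin is pericentromeric and holds, beside ATPC1, the protein-coding gene AT4G04650 and 2 pseudogenes, so its ratio belongs to all of them.

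Antenna bins had lower ratios than bins of photosystem subunits. The 17 antenna bins had a median log2 ratio of -0.075 and the 21 photosystem bins one of -0.041, a difference of -0.034. Pooled over their counts, the fold was 0.951 (0.944 to 0.958) for the antenna and 0.985 (0.979 to 0.992) for the photosystem subunits. Below the genome median lay 15 of the 17 antenna bins, or 88.2%, and 17 of the 21 photosystem bins, or 81.0%. Over all analysed bins the share was 50%. Lower by 1.1-fold or more were 3 antenna bins, or 17.6%, and no photosystem bin, against 2.65% of all analysed bins. At 1.05-fold, 10 antenna bins, or 58.8%, and 2 photosystem bins, or 9.52%, were lower, against 9.29% of all bins. With the 5 LHCB1 and LHCB2 bins left out, the difference was -0.0144, where the counting error of the full comparison was 0.0147 to either side. With every member that has a copy among the members left out, these included, 23 bins were left and the difference was -0.034. That set also lacks the LHCB4 bins and those of PSAD, PSAE, PSAH, PSBO and PSBQ, so it does not show the part of LHCB1 and LHCB2 alone. Within photosystem II, the antenna median was 0.035 log2 units below that of the subunits, and within photosystem I it was 0.014 below.

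The lower ratios stood at the gene bins rather than in the bins around them. The median member bin stood at -0.041, while the bins directly before and after had medians of 0.0086 and 0.0073. For the antenna, the bins directly before and after had medians of 0.0051 and 0.0038, and for the photosystem subunits 0.011 and 0.0087. Electron transport and ATP synthase genes together had medians of 0.0011 at the gene bin, 0.015 before it and -0.027 after it. In 37 of the 45 cases the member bin was lower than the median of the 10 bins within 50 kb of it, where the share was 50% over all bins with 10 analysed neighbours and 49.5% over those with a protein-coding gene midpoint. These were 15 of the 17 antenna bins, 16 of the 21 photosystem bins and 6 of the 7 electron transport and ATP synthase bins. Among the last, ATPC1 differed from that median by -0.20 on the log2 scale, and the other 5 by -0.011 to -0.0017.

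Lower than each of these 10 surrounding bins were 18 of the 45 member bins, or 40%, by a rule added after the values were seen. Over all bins with 10 analysed neighbours the share was 8.92%, and over those with a protein-coding gene midpoint it was 8.61%. These 18 bins were 8 of the 11 photosystem II antenna bins, 1 of the 6 photosystem I antenna bins, 5 of the 12 of photosystem I subunits, 3 of the 9 of photosystem II subunits and that of ATPC1. None of the 5 electron transport bins was among them.

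**Figure D3:**
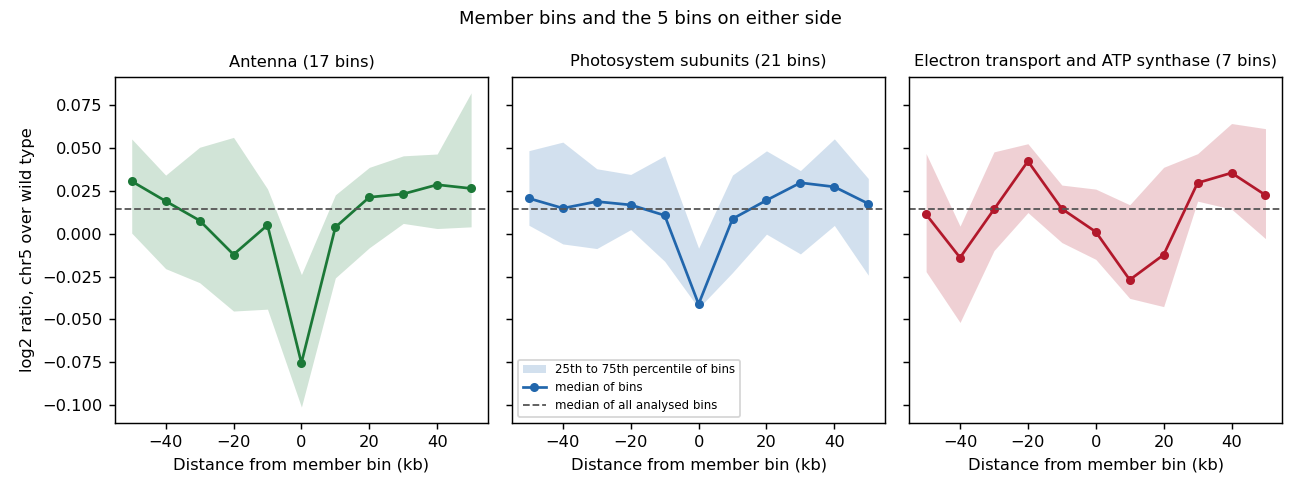
Median log2 ratio (points) of the member bins and of the 5 bins on either side, with the range from the 25th to the 75th percentile as a band, for antenna, photosystem subunits, and electron transport with ATP synthase. The antenna median is lowest at the gene bin itself (-0.075, against 0.0051 before and 0.0038 after), the photosystem median less deeply (-0.041), and the panel of 7 electron transport and ATP synthase bins has its lowest point one bin further on (-0.027).

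The surroundings differed among the lowest bins. Around the CAB1 to CAB3 bin, with a log2 ratio of -0.25, the 10 bins ranged from -0.065 to 0.15. Around the LHB1B1 and LHB1B2 bin, at -0.18, they ranged from -0.023 to 0.094, and around LHCB3, at -0.13, from -0.055 to 0.11. These 3 bins on chromosome arms were each lower than all 10 bins around them. The ATPC1 bin, at -0.20, also stood below its surroundings, which ranged from -0.096 to 0.056. LHCB2.1, at -0.18, lay next to another low bin, with 10542 counts in chr5 and 11332 in wild type and a log2 ratio of -0.15. LHCB2.2, at -0.10, lies close by, and the median of its 10 surrounding bins was itself -0.054. The 5 pericentromeric member bins (LHCB2.1, LHCB2.2, PSBX, PSBQ-2 and ATPC1) had a median of -0.10, against -0.054 over all pericentromeric bins. The 40 arm member bins had a median of -0.034, with 32 of the 40 below the genome median and 2 lower by 1.1-fold. Over all arm bins the median was 0.021, 43.8% lay below the genome median and 0.66% were lower by 1.1-fold.

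**Figure D4:**
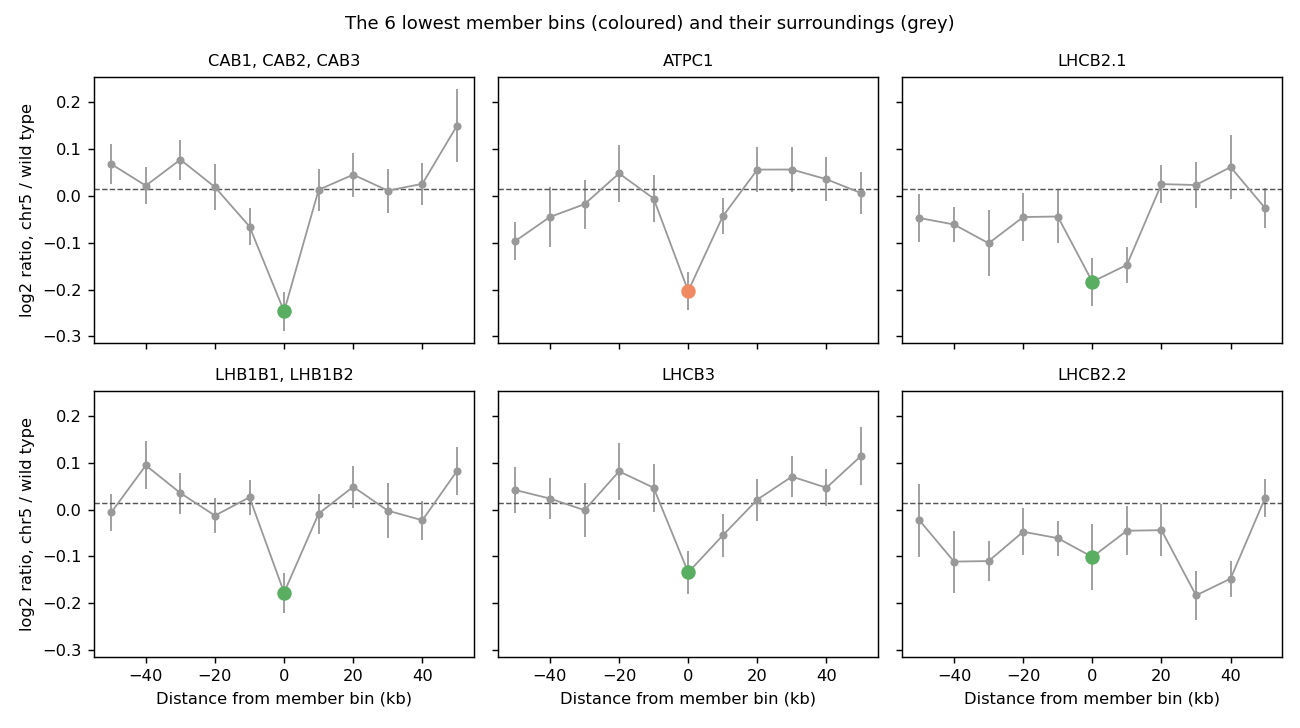
Log2 ratio of chr5 over wild type in the lowest member bins and in the 5 bins on either side, by distance from the member bin. CAB1 to CAB3 (-0.25), LHB1B1 with LHB1B2 (-0.18) and LHCB3 (-0.13) stand below each of their surrounding bins. LHCB2.1 (-0.18) does too, but has a low neighbour at -0.15.

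The ratio of a bin moved with its count level over the whole genome: the median log2 ratio was 0.052 in the lowest and -0.046 in the highest decile of mean count. Member bins had a median level of 0.933 times the nuclear median, with a range of 0.400 to 1.66. Set against the median of its own decile, the median member bin stood at -0.047, and the antenna then lay 0.048 below the photosystem subunits.

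**Figure D5:**
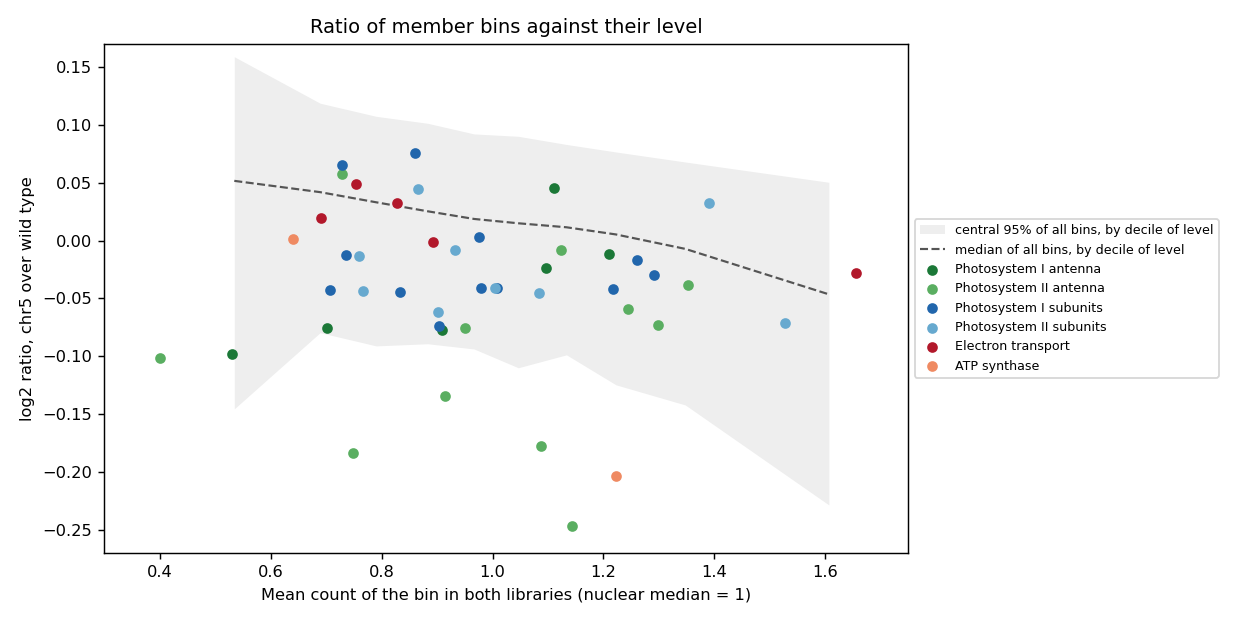
Log2 ratio of each member bin against its mean count in both libraries, as a multiple of the nuclear median, with the median (dashed) and central 95% (band) of all analysed bins by decile of level. Most member bins, at levels of 0.400 to 1.66, lie under the dashed median, and those of CAB1 to CAB3, ATPC1, LHCB2.1, LHB1B1 with LHB1B2, and LHCB3 lie under the band.

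Several members are copies of each other, and the sources used here do not say how reads with more than one match were counted. The counts of such genes are therefore uncertain. By name, 25 members in 10 families encode the same subunit as another member, and their sequence identity was not measured here. Reads shared between copies could be split or dropped in both libraries alike. In the chloroplast, the bins within the inverted repeat, a stretch present in a pair of identical copies, held 0 counts in both libraries. Within families the log2 ratio spanned 0.012 for PSBQ, 0.069 for LHCB1, 0.12 for LHCB2 and 0.15 for PSAE. Copies outside the member list were not searched for. PSBP-1, for example, counts as without a copy but shares its subunit name with PSBP-2 of the further genes below. Of the 23 bins of members without a listed copy, 21 lay below the genome median, with a median of -0.043. Of the 22 bins of members with a listed copy, 15 did, with a median of -0.013. Over all analysed bins the share was 50%. This split is by name only, and whether shared reads affect the ratios was not tested. The bin of ATPC1 was the one lower by 1.1-fold or more among members without a listed copy.

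A further 23 nuclear genes of the light reactions, for ferredoxins, photoprotection, assembly and regulation, stood closer to the genome than the 48. Their median log2 ratio was -0.011, and 17 of the 23 bins lay below the genome median, against 50% of all analysed bins. Lower by 1.05-fold were 3 of the 23, against 9.29% of all bins, and none was lower by 1.1-fold, against 2.65%. The lowest was STN7 (AT1G68830), the kinase of state transitions, with 5070 counts in chr5 and 5272 in wild type and a fold of 0.933 (0.898 to 0.970). PSB33 (AT1G71500), a photosystem II protein, followed at 0.947 (0.921 to 0.974). The highest were ELIP2 (AT4G14690), an early light-induced protein, at 1.04 (1.01 to 1.07), and PSB27 (AT1G03600), a photosystem II assembly and repair factor, at 1.04 (1.01 to 1.07).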

How the data were processed

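One chr5 and one wild-type leaf sample were treated with MNase, and libraries of the protected DNA were sequenced, per the labels' protocols. The authors deposited 1 table per library of whole-number counts in 10-kb bins, not normalized. Among tools, bedtools and BWA 0.7.5a are listed, per the submitters' processing notes. The sources used here do not give the genome build, the treatment of duplicates and multiply matching reads, or the unit counted (reads or fragments).

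Counts were scaled to each library's nuclear total, 102412872 in chr5 and 99392770 in wild type. Log2 ratios of bins used a pseudocount of 1, and 181 of the 11916 bins were dropped because their mean scaled count did not reach 0.25 of the nuclear median. Folds have no pseudocount, and their 95% intervals are exact binomial ones, conditional on the sum of both counts. The median analysed bin held 8296 counts in chr5 and 7978 in wild type. Pooled folds sum the counts of a group's bins. Gene positions came from a RefSeq table (assembly TAIR10.1) and are not printed. All 48 genes matched by locus ID. The match of builds was checked on the counts: after subtracting a running median over 21 bins from each, wild-type log2 counts and the share of protein-coding sequence had a correlation of 0.39 to 0.46 per chromosome, and of at most 0.10 when displaced by 1 to 4 bins. Printed bin coordinates follow the deposited tables and start at 1.

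The members, the other gene lists and the tests were chosen with earlier results of these data known. Values were to be given for the 6 lowest and 6 highest member bins, the lowest and highest of each group, bins with several members, members with a copy, and the 2 lowest and 2 highest bins of each other list. The LHCII trimer and monomeric groups, the 1.05-fold threshold, the rule on surrounding bins and the sets left out by copy family or pericentromere were added after the data were seen. Promoter motifs and protein identity were not analysed here, since no sequences were used, so copies were taken by name and within the member list only. Alternatives varied the scaling, filter, pseudocount, gene-to-bin assignment, copies, count level, surroundings and background. Scripts were tested on simulated data, with scipy 1.17.1, numpy 2.4.6, matplotlib 3.10.9 and pandas 2.3.3 under Python 3.11.15.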

Additional observations from a re-analysis of the deposited data

Results flagged for a closer look

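The chloroplast counts entered no comparison of the nuclear genes. They summed to 326817 in chr5 and 295173 in wild type, or 0.317% of all counts in chr5 and 0.295% in wild type. Per nuclear count the chr5 library held 1.07 times as many (1.07 to 1.08, counting error only). The 11 chloroplast bins with counts had folds of 1.07 to 1.09, and the 32 chloroplast-encoded genes of the light reactions all lie in them. The lowest of these bins holds atpA, atpF, atpH and atpI, and the highest holds atpB, atpE and psaI. With 1 library per genotype, a difference in the share of chloroplast DNA between preparations and one between genotypes cannot be told apart.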

How the results depend on the processing

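Leaving out a replicate was not possible with 1 library per genotype, and the planned comparisons of promoter motifs and protein identity were not run. No result reversed. The median log2 ratio of the member bins, -0.041, ranged from -0.056 to -0.011 over 15 alternatives and moved by more than the counting error of the pooled bins (0.0067) in 6: -0.056 with the median bin set to a ratio of 1, -0.011 with the bins on either side added, -0.049 less the median of the surrounding bins, -0.034 on arm bins alone and likewise with pericentromeric members left out, and -0.029 without the LHCB1 and LHCB2 bins. The genome median itself is 0.015 under the reported scaling. The count below the genome median was 21 of 23 without members with a copy and stayed within 1.5 times 36 under the other 14 alternatives. The count lower by 1.1-fold, 4, was the least stable: 7 with each gene once, 7 with all bins a gene overlaps, 7 less the decile median, 2 on arm bins or without pericentromeric members, 1 without members with a copy, 1 without the LHCB1 and LHCB2 bins, 0 with the bins on either side added, and 13 at 1.05-fold. The antenna minus photosystem difference, -0.034, was -0.013 with the bins on either side added and -0.014 without the LHCB1 and LHCB2 bins, and moved by less than 0.015 under the other 13. Depth limits a single bin of about 8000 counts to changes larger than the counting intervals printed.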

Other observations

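Genes that act downstream of the light reactions were described in the same way, from lists chosen with earlier results of these data known. The 17 Calvin cycle genes, which fix carbon with the ATP and NADPH of the light reactions, lay in 16 bins with a median log2 ratio of -0.045, and 14 of the 16 lay below the genome median. Over all analysed bins, 50% lay below it and 2.65% were lower by 1.1-fold or more. The bins of RCA (AT2G39730), Rubisco activase, with 9095 counts in chr5 and 9730 in wild type, and FBA1 (AT2G21330), a plastid fructose-bisphosphate aldolase, with 9025 counts in chr5 and 9641 in wild type, were lower by 1.1-fold or more. Their folds were 0.907 (0.882 to 0.934) and 0.909 (0.883 to 0.935). The highest were CP12-2 (AT3G62410), a small regulator of the cycle, at 1.04 (1.01 to 1.08) and the bin of the Rubisco small subunit genes RBCS1B and RBCS2B at 1.03 (0.995 to 1.07). As for the antenna, the bins directly before and after had medians near the genome, -0.0030 and 0.014.

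The 14 genes of chlorophyll synthesis and its regulators had a median log2 ratio of -0.0096. Of the 14, 11 lay below the genome median, against 50% of all analysed bins, and none was lower by 1.1-fold, against 2.65%. The lowest was GUN5 (AT5G13630), the large subunit of magnesium chelatase, with 12552 counts in chr5 and 13060 in wild type and a fold of 0.933 (0.910 to 0.956). HEMA1 (AT1G58290), a glutamyl-tRNA reductase at the start of the pathway, stood at 0.951 (0.918 to 0.984). The highest were CHLI2 (AT5G45930), a further magnesium chelatase subunit, at 1.05 (1.02 to 1.09) and GPRI1 (AT2G20570), the transcription factor GLK1, at 1.03 (0.991 to 1.07).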
